A study of Homo sapiens with 4 samples.

Results

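The coat proteins and their partners examined here are 54 human genes that move cargo between the endoplasmic reticulum (ER), the Golgi apparatus, endosomes and the plasma membrane. They were chosen by gene name from a list of coat subunits, their small GTPases, cargo receptors, membrane-fusion proteins (SNAREs), Golgi tethers and clathrin adaptors. All 54 were found once among the 51103 genes of the tables, and all 54 passed the filter on low values, which kept 13077 genes. The study asked which genes respond to overexpression of REEP6, a membrane protein that shapes the ER and takes part in trafficking of selected receptors. Polyadenylated RNA was sequenced from 2 samples of SCC-15 cells transduced with a lentivirus for REEP6 overexpression and from 2 samples labelled as negative control (NC), all grown in DMEM with fetal bovine serum. The vector of the control and whether the 2 replicates of a group were separate cultures are not given in the labels, and each p-value here therefore reflects variation between 2 samples a group that could be purely technical. Cells were lysed after 48 h, and the overexpressing cells are described as an established line, with no statement on clones.

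Transport out of the ER begins when the GTPase SAR1 recruits the COPII coat, whose SEC23 and SEC24 subunits select cargo and whose SEC13 and SEC31 subunits form the outer cage. Escaped ER residents are returned from the Golgi by the COPI coat, a complex called coatomer that is recruited by the GTPase ARF1 and binds KDEL receptors carrying chaperones. Clathrin, with adaptor complexes that differ by membrane (AP-1 at the Golgi and endosomes, AP-2 at the plasma membrane, AP-3 on endosomes), forms the coats of the later routes. In secretory cells, genes of the ER arm of this machinery are known targets of the unfolded protein response.

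Library totals lay between 12856256 and 15208629 counts assigned to genes, and the 54 genes took 0.843% and 0.869% of the counts in the REEP6 libraries and 0.820% and 0.855% in the control libraries. REEP6 itself had 20.0 and 20.9 FPKM (counts per kilobase of gene, scaled to the library total) in the REEP6 libraries, against 11.1 and 12.6 FPKM in the control libraries, a 1.76-fold difference (edgeR adjusted p 0.00119). SCC-15 is described as a line of oral squamous cell carcinoma, and most defining markers of squamous epithelium were near 0. Of 11 such markers, only PERP and EPCAM passed the filter, KRT6A and DSG3 were at 0 in all 4 libraries, and KRT5, KRT14, KRT17, TP63, CDH1 and SFN were each at or below 0.173 FPKM in every library. DSP, also under the filter, had 0.479 and 0.484 FPKM with REEP6, against 0.0771 and 0.176 FPKM in controls. Of 10 fibroblast markers 4 were tested, COL3A1, LUM, POSTN and PDGFRB, and all 4 were lower with REEP6. POSTN passed the filter only through the controls (1.57 and 1.70 FPKM, against 0.456 and 0.289 FPKM with REEP6), so its direction carries no weight. The summed level of the 10 was 18.3 and 18.1 FPKM in the REEP6 libraries and 36.6 and 34.5 FPKM in the controls. Most of it was COL3A1, at 14.5 and 13.9 FPKM with REEP6 and 25.2 and 22.1 FPKM in controls. COL1A1, COL1A2, DCN and THY1 were each at or below 0.396 FPKM in every library, and FAP was at 0 throughout. PDGFRA, on the same list and under the filter, went the other way, with 0.986 and 1.06 FPKM with REEP6 and 0.663 and 0.709 FPKM in controls. The summed level of leukocyte markers was 2.43 and 1.98 FPKM with REEP6, against 1.78 and 3.09 FPKM in controls, with CD68 at 0. Sums were at most 0.344 FPKM for 5 endothelial markers (KDR at 0) and 0.642 FPKM for 4 melanocyte markers (TYR at 0) in any library. The part of any other cell type in the results that follow was not tested. In RNA from whole cultures, fewer cells of a type and less RNA per cell cannot be told apart.

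With REEP6 overexpression, 12 of the 54 genes rose and 7 fell (edgeR quasi-likelihood test, Benjamini-Hochberg adjusted p under 0.05 over all 13077 genes). Among all tested genes 10.9% were called higher, 14.2% lower and 25.1% in either direction. Of the members 22.2% were higher and 13% lower, so with these settings the share that fell lay near the background and the share that rose was above it. The excess of rises did not hold in every setting: 1.85% of members against 4.85% of all genes were higher with limma on log2(FPKM + 1), 3.70% against 7.32% without an abundance trend, and 0% against 3.79% at an adjusted p of 0.01. Without control replicate 1 these shares were 5.56% and 10.7%, and without REEP6 replicate 2 they were 7.41% and 8.47%. With libraries scaled to equal FPKM sums instead, which moved the median of all genes to -0.14, the split was 1 higher and 14 lower, against 661 and 2824 of all genes. The changes were small: log2 fold changes of the called members ran from 0.27 to 0.61 among those that rose and from -0.65 to -0.30 among those that fell. The median over all 54 was 0.07, against -0.01 over all tested genes. FPKM of the groups did not overlap, with REEP6 higher, for 20 members, and with REEP6 lower for 17, where 28.2% and 35.3% of all tested genes did the same in those directions. Of the 12 rises 6 were in cargo receptors. The falls were spread over coatomer, an exit-site protein, a SNARE, a tether and an adaptor subunit.

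**Figure D1:**
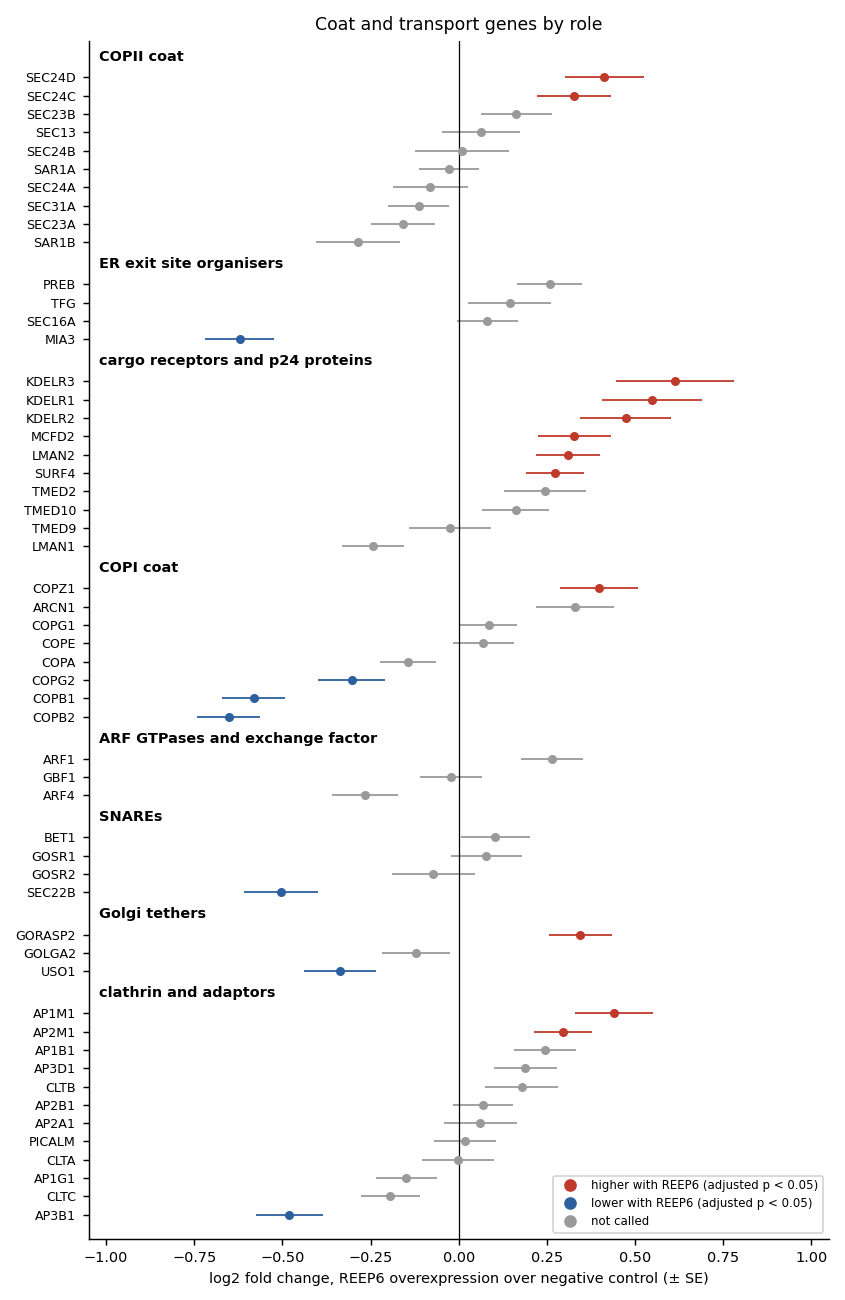
Log2 fold change of each of the 54 genes, REEP6 overexpression over negative control (x axis, bars are SE from the edgeR fit, n = 2 libraries per group), grouped by role. Red points are the 12 genes called higher, blue points the 7 called lower and grey points the 35 not called; 6 of the 10 cargo receptors and p24 proteins are red, and coatomer holds both colours.

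The 2 directions differed in how far they depended on single libraries and settings. None of the 12 rises had an adjusted p under 0.01, and of these genes only KDELR1 kept its call when each library was left out in turn. Of the 7 falls, 5 had an adjusted p under 0.01 (AP3B1, COPB1, COPB2, MIA3 and SEC22B), and the same 5 kept their call without each library. COPB1, COPB2 and MIA3 kept it in all 18 alternative settings, while AP3B1 and SEC22B lost it in a single setting, the correction for GC content. None of the 19 called members changed direction in any setting in which it was tested. With single libraries left out, the median log2 fold change over the 54 members ran from 0.05 (control replicate 1 removed) to 0.10 (control replicate 2 removed). Over all tested genes the median lay between -0.01 and 0.01 in those fits.

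**Figure D2:**
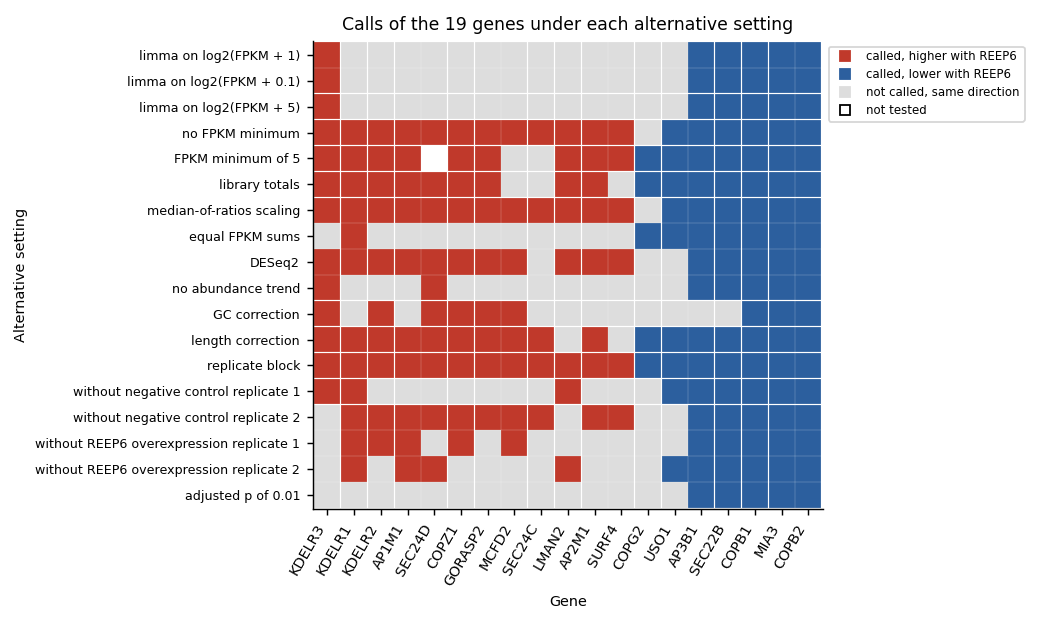
Calls of the 19 genes (columns, ordered by log2 fold change) under each of 18 alternative settings (rows). Red and blue squares mark a call in the direction found (red higher, blue lower with REEP6), grey squares a lost call in the same direction, and the white square a gene not tested in that setting; COPB1, MIA3 and COPB2, at the right edge, are blue in all rows.

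Promoter sequences were examined for letters tied to ER stress signalling, because transcription factors of the unfolded protein response, ATF6 and XBP1, bind elements of this kind. RefSeq promoters (GRCh38.p14, 250 bases before to 50 after the annotated start) were matched by symbol for 46 of the 54 genes. SEC24D, KDELR2, TMED9, ARF4, USO1, AP1M1, AP3B1 and AP3D1 had no entry. The letters TGACGTGG, on either strand, were in the promoters of 9 of 46 members (19.6%), against 0.795% of 27305 RefSeq promoters and 0.990% of 8893 promoters of tested genes. The 9 were ARF1, COPA, COPB1, COPB2, GBF1, KDELR3, SEC16A, SEC23A and SEC24A. Of the promoters of members that rose 1 of 9 held it, of those that fell 2 of 5, and of those not called 6 of 32, so the letters occurred in genes of each kind. The 3 called genes with the motif are shown because they moved in opposite directions; capitals mark the motif, which reads CCACGTCA on the gene's strand in each.
KDELR3: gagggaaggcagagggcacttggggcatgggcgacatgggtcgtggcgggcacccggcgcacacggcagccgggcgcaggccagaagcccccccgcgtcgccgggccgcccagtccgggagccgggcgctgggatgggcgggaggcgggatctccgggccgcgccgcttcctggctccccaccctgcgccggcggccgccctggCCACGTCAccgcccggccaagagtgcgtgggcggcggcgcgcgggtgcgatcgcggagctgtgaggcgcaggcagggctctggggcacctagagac
COPB1: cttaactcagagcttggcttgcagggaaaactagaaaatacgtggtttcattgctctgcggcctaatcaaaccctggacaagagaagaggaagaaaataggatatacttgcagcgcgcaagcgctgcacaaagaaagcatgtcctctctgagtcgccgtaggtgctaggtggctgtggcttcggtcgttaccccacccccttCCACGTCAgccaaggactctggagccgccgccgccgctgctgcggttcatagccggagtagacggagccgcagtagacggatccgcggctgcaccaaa
COPB2: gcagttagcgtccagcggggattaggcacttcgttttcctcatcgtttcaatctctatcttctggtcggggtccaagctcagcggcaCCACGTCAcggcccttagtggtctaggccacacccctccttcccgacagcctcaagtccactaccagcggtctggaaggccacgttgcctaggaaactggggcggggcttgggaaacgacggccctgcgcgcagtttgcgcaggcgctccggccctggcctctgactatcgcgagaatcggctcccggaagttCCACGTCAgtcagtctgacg

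The KDELR3 sequence is chr22:38467846-38468145 on the plus strand, COPB1 is chr11:14499762-14500061 on the minus strand and COPB2 is chr3:139389631-139389930 on the minus strand. The motif began 46 bases before the start in KDELR3 and 48 bases before it in COPB1, while COPB2 held it at 163 bases before and again 30 bases after. The shorter letters CCACG, which this motif contains, were in 35 of 46 member promoters (76.1%) in 37.9% of all promoters and in 50.7% of those of tested genes. TGACGTCA, the cyclic AMP response element, was in those of 2 members, AP2B1 and CLTB (4.35%, against 1.98% of all promoters and 3.38% of those of tested genes). CACGTG was in 4 (8.70%, against 7.43% of all promoters and 10.4% of those of tested genes). The full ER stress element, which joins a CCAAT box to CCACG over a fixed gap, was in 0 of 46, where 0.0810% of all promoters and 0.157% of those of tested genes held it, so a count of 0 in 46 does not set the members apart. A match is a description of letters in this window and was not tested for binding.

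Cargo receptors showed the most rises, with 6 of 10 called higher and 0 lower, against 10.9% of all tested genes called higher. The count was 1 with limma on log2(FPKM + 1), without an abundance trend or with equal FPKM sums (4.85%, 7.32% and 5.05% of all genes). It was 0 at an adjusted p of 0.01 (3.79%). With library totals, the GC correction or the length correction it was 4 (9.22%, 8.96% and 12.4%), and with DESeq2 6 (9.07%). Without each library in turn, the median log2 fold change of these 10 genes lay between 0.23 and 0.38. Their summed level was 639.9 and 663 FPKM in the REEP6 libraries, against 532 and 570 FPKM in the controls (both groups are sums over 10 genes). All KDEL receptors, which return chaperones carrying a KDEL tail to the ER, were higher. KDELR1 (ENSG00000105438, chromosome 19, 48382570 to 48391553, minus strand, GRCh38) had 92.4 and 104 FPKM in REEP6 libraries, against 56.9 and 79.5 FPKM in control libraries. The groups did not overlap, and the controls differed from each other by more than the REEP6 libraries did. Its log2 fold change was 0.55 ± 0.141 (SE; edgeR adjusted p 0.0205), or 0.33 without control replicate 1 and 0.84 without control replicate 2. KDELR2 (chromosome 7, 6445953 to 6484242, minus strand) had 53.5 and 65.5 FPKM with REEP6, against 38.6 and 48.6 FPKM in controls. KDELR3 (chromosome 22, 38468062 to 38483447, plus strand), the least abundant of the family, had 7.52 and 7.99 FPKM with REEP6, against 5.56 and 4.77 FPKM in controls. KDELR2 rose by a log2 fold change of 0.47 ± 0.129 and KDELR3 by 0.61 ± 0.167 (SE; edgeR adjusted p 0.0251 and 0.0252). The KDELR2 call ended without control replicate 1 (log2 fold change 0.31, edgeR adjusted p 0.0665) or REEP6 replicate 2 (0.33, 0.0864). The KDELR3 call ended without control replicate 2 (0.53, 0.0868), REEP6 replicate 1 (0.65, 0.0508) or REEP6 replicate 2 (0.58, 0.0959). For KDELR2, 8.12% of its 50-base stretches are shared with the neighbouring gene DAGLB. Within the family the shares changed little: KDELR1 made up 60.2% and 58.5% of the summed FPKM of the receptors in REEP6 libraries and 56.3% and 59.8% in controls.

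The other 3 cargo receptors that rose were abundant. SURF4, which exports soluble cargo such as lipoproteins and was the most abundant member of all, had 144 and 149 FPKM with REEP6, against 119.9 and 127 FPKM in controls. LMAN2 (VIP36), a lectin for high-mannose glycoproteins, had 117 and 106 FPKM with REEP6, against 95.2 and 88.4 FPKM in controls. MCFD2 is the calcium-binding partner of LMAN1 in the export of coagulation factors V and VIII. Of its exonic bases 9.93% lie under AC016722.2 and TTC7A on the opposite strand, and the strand setting of the counting is not given. MCFD2 had 28.3 and 32.6 FPKM with REEP6, against 22.9 and 26.4 FPKM in controls. In each of these genes the groups did not overlap, and the log2 fold changes were 0.27 ± 0.0823, 0.31 ± 0.0901 and 0.33 ± 0.103 (SE; edgeR adjusted p 0.0384, 0.0326 and 0.0438). Each lost its call without at least 2 of the single libraries, with log2 fold changes across those 4 fits of 0.23 to 0.34 for SURF4, 0.23 to 0.38 for LMAN2 and 0.23 to 0.46 for MCFD2, and the highest adjusted p was 0.198, 0.256 and 0.260. With the length correction SURF4 (0.23, edgeR adjusted p 0.0636) and LMAN2 (0.26, 0.0596) lost their calls. LMAN1 (ERGIC-53), the lectin that MCFD2 binds, had 20.0 and 22.4 FPKM with REEP6, against 25.3 and 25.9 FPKM in controls, and was not called (log2 fold change -0.24, edgeR adjusted p 0.0694). The groups did not overlap, so in FPKM MCFD2 and LMAN1 lay on opposite sides of their controls. With the GC correction LMAN1 turned to 0.017 (edgeR adjusted p 0.911) and MCFD2 stayed at 0.38 (0.0366), so the opposition did not hold there. The p24 proteins TMED2, TMED9 and TMED10, which help to form and fill vesicles, overlapped between groups, with log2 fold changes of 0.24, -0.03 and 0.16 and edgeR adjusted p of 0.152, 0.900 and 0.243.

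**Figure D3:**
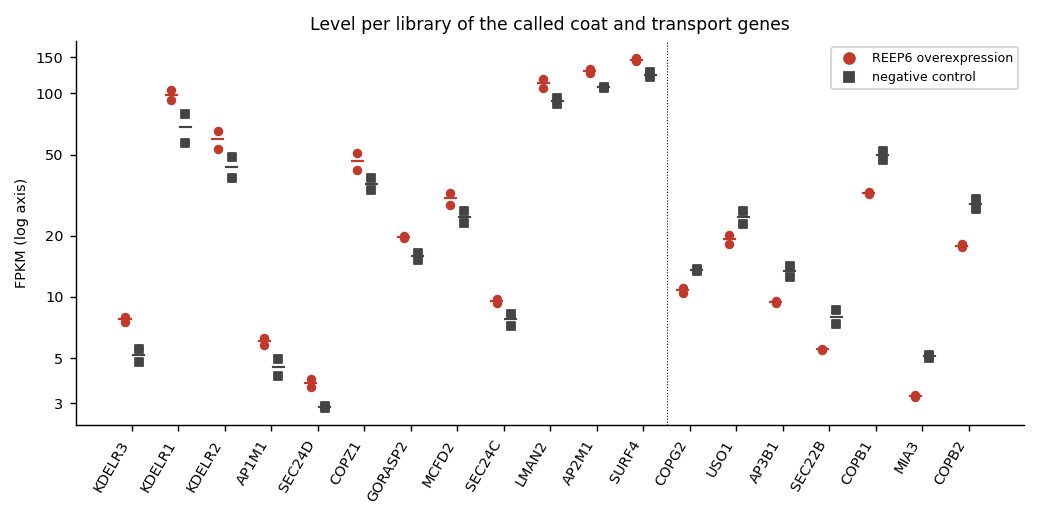
FPKM (log axis) in each library for the 19 called genes, ordered by log2 fold change; red circles are REEP6 overexpression libraries, dark squares negative control libraries, and bars the mean of 2. The 12 genes left of the dotted line are higher with REEP6 and the 7 to its right lower, and no gene's groups overlap. The genes were chosen by their call on these libraries. Groups also did not overlap in 28.2% (REEP6 higher) and 35.3% (REEP6 lower) of all tested genes.

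Coatomer subunits moved in both directions although they act in a single complex. Of the 8, 3 fell and 1 rose, against 14.2% and 10.9% of all tested genes. The split was 2 lower and 2 higher with DESeq2 (10.5% and 9.07% of all genes) or the GC correction (8.77% and 8.96%). With limma on log2(FPKM + 1), 2 were lower and 0 higher (9.73% and 4.85%). Equal FPKM sums gave 4 lower and 0 higher (21.6% and 5.05%). With so few genes these counts do not set the group apart. COPB2 (beta prime subunit; ENSG00000184432, chromosome 3, 139355600 to 139389732, minus strand) had 18.2 and 17.5 FPKM with REEP6, against 30.1 and 27.1 FPKM in controls. COPB1 (beta subunit; ENSG00000129083, chromosome 11, 14443440 to 14500027, minus strand) had 32.1 and 32.9 FPKM with REEP6, against 46.8 and 52.3 FPKM in controls. The REEP6 libraries lay close together in each and well below both controls. COPB2 fell by 0.65 ± 0.0892 on the log2 scale (1.57-fold lower, edgeR adjusted p 0.00136) and COPB1 by 0.58 ± 0.0890 (1.50-fold lower, 0.00216). Of the 50-base stretches of COPB1, 6.74% are also in AC018523.2, so part of its count is uncertain. COPG2, the less abundant of the 2 gamma subunits, has 8.87% of its exonic bases under AC007938.3 and MEST on the opposite strand. The strand setting of the counting is not given. COPG2 had 11.1 and 10.5 FPKM with REEP6, against 13.4 and 13.6 FPKM in controls, a fall of 0.30 ± 0.0952 (edgeR adjusted p 0.0437). Its call ended without any single library, with log2 fold changes of -0.35 to -0.26 and adjusted p of 0.0643 to 0.256.

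COPZ1 (zeta subunit) rose, with 42.2 and 50.8 FPKM in REEP6 libraries, against 33.5 and 38.3 FPKM in controls (log2 fold change 0.40 ± 0.109, edgeR adjusted p 0.0263). Its call ended without control replicate 1 (0.30, edgeR adjusted p 0.0706) or REEP6 replicate 2 (0.27, 0.190). ARCN1 (delta subunit) had 38.1 and 45.6 FPKM with REEP6, against 31.4 and 36.4 FPKM in controls, and did not pass (log2 fold change 0.33, edgeR adjusted p 0.0541). It passed without control replicate 2 (0.47, 0.00916) or REEP6 replicate 1 (0.45, 0.0132), among other settings. COPG1, the major gamma subunit, had 49.0 and 48.3 FPKM with REEP6, against 47.3 and 46.2 FPKM in controls (log2 fold change 0.09, edgeR adjusted p 0.477). COPA (alpha subunit) had 47.1 and 48.1 FPKM with REEP6, against 54.1 and 53.0 FPKM in controls (-0.14, 0.217), and COPE (epsilon subunit) overlapped between groups (0.07, 0.597). Shares of the summed FPKM of the 8 subunits were lower for COPB1 and COPB2 and higher for COPZ1 and ARCN1. COPB1 made up 12.0% and 11.6% with REEP6, against 16.4% and 17.6% in controls, and COPB2 6.81% and 6.16%, against 10.6% and 9.13%. COPZ1 made up 15.7% and 17.9% with REEP6, against 11.7% and 12.9% in controls.

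In the COPII coat 2 of 10 genes rose and 0 fell, against 10.9% and 14.2% of all tested genes. The rises stayed at 2 with the length correction (12.4% of all genes were higher there). They numbered 1 with library totals, DESeq2 or the GC correction (9.22%, 9.07% and 8.96%), and 0 with limma on log2(FPKM + 1) (4.85%). Both genes that rose in the main test belong to the SEC24 cargo-binding family. SEC24C had 9.36 and 9.77 FPKM with REEP6, against 7.24 and 8.29 FPKM in controls, and SEC24D had 3.95 and 3.60 FPKM, against 2.85 and 2.92 FPKM. These related proteins form a subclass distinct from SEC24A and SEC24B. The log2 fold changes were 0.33 ± 0.105 and 0.41 ± 0.112 (SE; edgeR adjusted p 0.0471 and 0.0252). The SEC24C call ended without any library but control replicate 2, at edgeR adjusted p of 0.109 to 0.186, and the SEC24D call without control replicate 1 (0.0552) or REEP6 replicate 1 (0.181). Reads of SEC24C are uncertain, since 42.9% of its exonic bases lie under AC022400.8 on the opposite strand and the strand setting of the counting is not given in the sources used here. SEC24B, with 12.6 and 13.6 FPKM with REEP6 and 11.3 and 15.1 FPKM in controls, was the most abundant SEC24 gene and overlapped between groups, as did SEC24A. SEC24C held 29.2% and 28.6% of the summed SEC24 FPKM with REEP6, against 25.6% and 24.5% in controls. The coat's remaining genes SAR1A, SAR1B, SEC13, SEC23A, SEC23B, SEC31A, SEC24A and SEC24B ranged in log2 fold change from -0.29 (SAR1B, edgeR adjusted p 0.108) to 0.16 (SEC23B, 0.260). SEC23A, the most abundant COPII gene by mean FPKM, had 24.1 and 24.7 FPKM with REEP6, against 25.97 and 29.5 FPKM in controls (log2 fold change -0.16, edgeR adjusted p 0.231). Its sign turned with the correction for GC content (0.085).

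Among the organisers of ER exit sites MIA3 (TANGO1), the receptor that loads bulky cargo such as collagen VII into COPII carriers, fell. MIA3 (ENSG00000154305, chromosome 1, 222618086 to 222668012, plus strand) had 3.31 and 3.21 FPKM with REEP6, against 5.02 and 5.20 FPKM in controls. Replicates were closer to each other than the groups were, and the log2 fold change was -0.62 ± 0.0979 (1.54-fold lower, edgeR adjusted p 0.00245). It was between -0.65 and -0.57 without each library. The scaffold SEC16A (0.08, edgeR adjusted p 0.533) and the assembly factor TFG (0.14, 0.396) overlapped between groups. PREB (SEC12), the exchange factor that loads SAR1 with GTP, had 17.4 and 17.9 FPKM with REEP6, against 15.2 and 14.9 FPKM in controls, and did not pass (0.26, 0.0667). TFG, at 39.3 and 44.5 FPKM with REEP6 and 34.2 and 42.9 FPKM in controls, was called higher without control replicate 2 (0.35, 0.0358), and its sign turned without control replicate 1 (-0.012).

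Of the 4 SNAREs 0 rose and 1 fell, and of the 3 Golgi tethers 1 rose and 1 fell. Among all tested genes 10.9% were called higher and 14.2% lower, and with so few genes these counts do not set the groups apart. SEC22B, a SNARE of ER and Golgi fusion, had 5.57 and 5.48 FPKM with REEP6, against 7.35 and 8.62 FPKM in controls, a fall of 0.51 ± 0.105 on the log2 scale (edgeR adjusted p 0.00846). Its level is uncertain, because 8.83% of its 50-base stretches are also in transcripts of other genes, chiefly its copies SEC22B4P, SEC22B2 and SEC22B3. USO1 (p115), the tether that links vesicles to the cis-Golgi, had 18.2 and 20.1 FPKM with REEP6, against 22.9 and 26.4 FPKM in controls (log2 fold change -0.34 ± 0.101, edgeR adjusted p 0.0372). Its call ended without control replicate 2 (-0.20, 0.213) or REEP6 replicate 1 (-0.28, 0.191). GORASP2 (GRASP55), which joins Golgi cisternae, moved the other way, with 19.4 and 20.0 FPKM with REEP6 and 15.2 and 16.4 FPKM in controls (0.34 ± 0.0890, edgeR adjusted p 0.0206). It kept its call without control replicate 2 and lost it without each of the other 3 libraries, at adjusted p of 0.0651 to 0.0947. GOLGA2 (GM130), the cis-Golgi matrix protein that binds USO1, was not called (-0.12, edgeR adjusted p 0.395). The SNAREs BET1 (0.10), GOSR1 (0.08) and GOSR2 (-0.07) were not called either. BET1 had 8.16 and 7.94 FPKM with REEP6, against 7.44 and 7.82 FPKM in controls, and was called higher with the GC correction (0.44, edgeR adjusted p 0.0173).

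The GTPases ARF1 and ARF4, which recruit coats to Golgi membranes, lay on opposite sides of their controls and neither passed in the main test. ARF1 had 81.5 and 87.9 FPKM with REEP6, against 69.1 and 74.5 FPKM in controls (log2 fold change 0.26, edgeR adjusted p 0.0508). It passed without control replicate 2 (0.35, edgeR adjusted p 0.0310), without an FPKM minimum (0.28, 0.0253), with median-of-ratios scaling (0.28, 0.0444) and with DESeq2 (0.28, 0.0488), and was 0.14 (0.311) with the GC correction. ARF4 had 74.6 and 82.2 FPKM with REEP6, against 90.5 and 101 FPKM in controls (-0.27, 0.0644), and passed without control replicate 1 (-0.35, 0.0244) and with 4 of the other scalings, corrections and filters. With the GC correction it was -0.13 (0.343). The log2 ratio of ARF4 to ARF1 within a library was -0.13 and -0.10 with REEP6, against 0.39 and 0.44 in controls. By FPKM, ARF1 was thus the higher of the pair with REEP6 and ARF4 in the controls. The ratio is not corrected for GC content, and with that correction the fold changes of the pair lay closer together. For ARF4, 11.6% of exonic bases lie under the antisense gene ARF4-AS1. GBF1, their exchange factor at the cis-Golgi, had 18.7 and 17.3 FPKM with REEP6, against 18.9 and 18.3 FPKM in controls (-0.02, edgeR adjusted p 0.890).

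**Figure D4:**
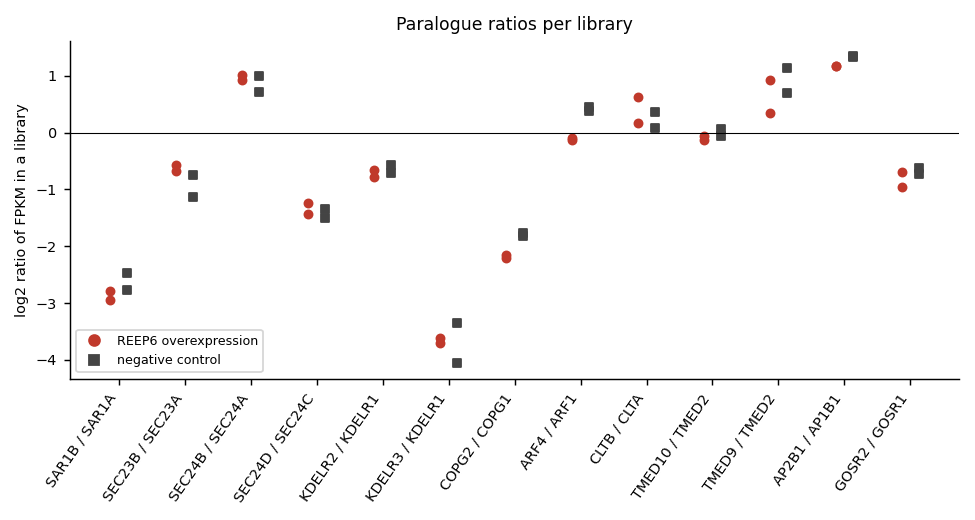
Log2 ratio of FPKM between paralogues within each library (y axis) for 13 pairs; red circles are REEP6 overexpression libraries and dark squares negative control libraries, 2 each. The ARF4 to ARF1 ratio lies below 0 in REEP6 libraries and above 0 in controls, and the COPG2 to COPG1 ratio is lower in REEP6 libraries. Ratios are not corrected for GC content, and neither ARF1 nor ARF4 was called in the main test.

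Ratios between other paralogues are given as descriptions without a test. COPG2 to COPG1 was -2.15 and -2.21 on the log2 scale with REEP6, against -1.82 and -1.76 in controls, and SEC23B to SEC23A was -0.56 and -0.67, against -0.74 and -1.13. SAR1B to SAR1A was -2.95 and -2.79 with REEP6, against -2.77 and -2.48 in controls. AP2B1 to AP1B1, large chains of AP-2 and AP-1, was 1.17 in each REEP6 library, against 1.34 and 1.35 in controls. In these pairs the groups did not overlap. Such separation is common: FPKM of single tested genes did not overlap in 28.2% (REEP6 higher) and 35.3% (REEP6 lower). No share was computed for ratios of other gene pairs. The ratios are not corrected for GC content. With the GC correction the log2 fold changes were 0.18 for SEC23B and 0.085 for SEC23A. They were -0.16 for COPG2 and 0.010 for COPG1, and 0.089 for AP2B1 and 0.13 for AP1B1. The genes of these pairs lay closer together there than in the main fit, while SAR1B (-0.084) and SAR1A (0.17) stayed about as far apart. The groups overlapped for SEC24B to SEC24A, SEC24D to SEC24C, both KDEL receptor ratios, CLTB to CLTA, both TMED ratios and GOSR2 to GOSR1.

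Clathrin chains did not pass in either direction. The heavy chain CLTC had 30.1 and 31.5 FPKM with REEP6, against 37.2 and 34.6 FPKM in controls (log2 fold change -0.19, edgeR adjusted p 0.117), and the light chains CLTA (0.00, 0.993) and CLTB (0.18, 0.232) overlapped between groups. Of the 12 genes of clathrin and its adaptors 2 rose (16.7%) and 1 fell (8.33%), against 10.9% and 14.2% of all tested genes. With so few genes these counts do not set the group apart. AP2M1, the AP-2 medium chain that reads tyrosine-based sorting signals at the plasma membrane, had 131 and 126 FPKM with REEP6, against 106 and 108 FPKM in controls. AP1M1, the AP-1 medium chain, had 5.79 and 6.30 FPKM with REEP6, against 4.09 and 4.97 FPKM in controls. These medium chains rose by log2 fold changes of 0.30 ± 0.0819 and 0.44 ± 0.111 (SE; edgeR adjusted p 0.0272 and 0.0190). Without control replicate 1 both calls ended (AP2M1 0.28, adjusted p 0.0807; AP1M1 0.30, 0.0630), and the AP2M1 call also ended without REEP6 replicate 1 (0.26, 0.198) or REEP6 replicate 2 (0.33, 0.0745). AP3B1, the beta chain of AP-3 that is mutated in Hermansky-Pudlak syndrome, had 9.51 and 9.32 FPKM with REEP6, against 14.2 and 12.6 FPKM in controls, a fall of 0.48 ± 0.0949 (edgeR adjusted p 0.00671). AP3D1, the delta chain of the same complex, had 31.8 and 29.5 FPKM with REEP6, against 28.6 and 26.2 FPKM in controls, and was not called (0.19, 0.146). The large AP-1 chains AP1B1 (0.24, 0.0702) and AP1G1 (-0.15, 0.232), the AP-2 chains AP2A1 (0.06) and AP2B1 (0.07) and the clathrin assembly protein PICALM (0.02) were not called.

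GC content moved with the direction of change. The 7 members that fell had transcripts of 36.6% to 43.8% GC and the 12 that rose 44.4% to 59.8%, with no overlap. All 7 falls were in the lowest-GC tercile of tested genes, 7 of 23 members there (30.4%), where 28.2% of all genes were called lower and 2.50% higher. Over the 54 genes Pearson's r between GC content and log2 fold change was 0.48 (Spearman's rho 0.52), and over all 13077 genes 0.27 (0.34), as a description across genes that share the same 4 libraries. In the middle tercile 7 of 15 members rose (46.7%), against 11.7% of all genes, and in the highest tercile 4 of 16 (25.0%), against 18.4%. When each library was corrected for GC content, 9 members were called higher and 3 lower, against 8.96% and 8.77% of all genes. COPB2 (-0.49, edgeR adjusted p 0.00650), COPB1 (-0.38, 0.0150) and MIA3 (-0.45, 0.0140) stayed called. So did the rises of KDELR2 (0.56, 0.0197), KDELR3 (0.63, 0.0296), SEC24D (0.52, 0.0136), MCFD2 (0.38, 0.0366), COPZ1 (0.39, 0.0449) and GORASP2 (0.32, 0.0375). SEC22B (-0.16, 0.293), AP3B1 (-0.21, 0.175), USO1 (-0.03, 0.825), COPG2 (-0.16, 0.248), KDELR1 (0.41, 0.101), SURF4 (0.16, 0.226), LMAN2 (0.20, 0.117), SEC24C, AP1M1 and AP2M1 were no longer called, while ARCN1 (0.47, 0.0201), TMED2 (0.41, 0.0398) and BET1 were.

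**Figure D5:**
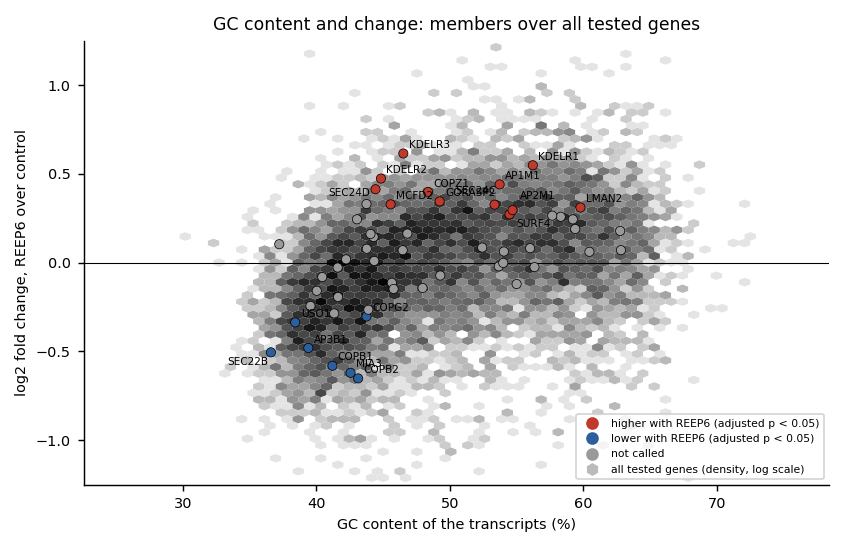
Log2 fold change, REEP6 overexpression over negative control (y axis), against GC content of the gene's transcripts in percent (x axis); grey hexagons are the density of all tested genes on a log scale and points the 54 members, coloured by call. The 7 blue points lie at or below 43.8% GC and the 12 red points at or above 44.4%.

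Length moved with the calls as well. Over all tested genes the share called lower was 4.50% in the shortest tercile, 13.2% in the middle and 24.8% in the longest, and of the members 0 of 8, 3 of 22 and 4 of 24 fell. The share called higher was 8.95%, 13% and 10.7% in the same order, and 3, 7 and 2 members rose. Of the members called higher the median length was 4373 bases and of those called lower 7310 bases, and these ranges overlapped (1929 to 14371 and 4139 to 10171). Pearson's r between log2 length and log2 fold change was -0.39 over the members (Spearman's rho -0.41) and 0.00 over all tested genes (-0.10). A correction for length gave 12 members higher and 8 lower (22.2% and 14.8%), against 12.4% and 11.9% of all tested genes.

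Other genes of these routes were followed from a list of 102 further subunits, tethers, SNAREs and adaptors, of which 95 were tested. Of these, 9 were higher and 15 lower (9.47% and 15.8%, near the 10.9% and 14.2% of all tested genes), with a median log2 fold change of 0.00. The largest falls were in HIP1R, an actin-binding partner of clathrin, and in the golgins GOLGB1 (giantin) and GOLGA5 (golgin-84). HIP1R had 2.86 and 2.68 FPKM with REEP6, against 5.43 and 5.26 FPKM in controls. GOLGB1 had 8.25 and 8.56 FPKM with REEP6, against 15.6 and 13.6 FPKM in controls. GOLGA5 had 7.89 and 7.73 FPKM with REEP6, against 12.6 and 13.1 FPKM in controls. These falls were of 0.92, 0.77 and 0.69 on the log2 scale (edgeR adjusted p 0.00108, 0.000908 and 0.00230), each with separate groups. The largest rises were in AP1S3, a small chain of AP-1, with 2.36 and 2.18 FPKM with REEP6 and 1.42 and 1.34 FPKM in controls, and in ARF3, a relative of ARF1, with 51.3 and 51.0 FPKM and 33.5 and 34.7 FPKM. BNIP1, a SNARE of the ER, had 9.13 and 10.4 FPKM with REEP6, against 6.63 and 7.17 FPKM in controls. Their log2 fold changes were 0.75, 0.61 and 0.53 (edgeR adjusted p 0.0209, 0.00121 and 0.0251). AP1S3 lost its call in the fit that lacked REEP6 replicate 1 (0.68, edgeR adjusted p 0.109). BNIP1 lost it without control replicate 1 (0.47, 0.0655) or REEP6 replicate 2 (0.44, 0.134).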

How the data were processed

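Per the submitters' processing notes, HISAT2, HTSeq 0.13.5 and the build GRCh38 were used, with no roles given. The annotation, the strand setting and how multi-mapping reads were handled: not given in the sources used here. The authors deposited raw counts and FPKM per gene for each library. Dividing count by FPKM and library total gave 1 length per gene for 100% of 29161 genes with a count (relative tolerance 0.0001), so the deposited FPKM is scaled to the count total. Identifiers matched GENCODE 29 in all 51103 cases, and coordinates, GC content (length-weighted over transcripts) and overlaps come from it. Genes with at least 1 FPKM in 2 or more of the 4 libraries were tested with edgeR 4.0.16 (R 4.3.3), TMM scaling, quasi-likelihood test, 1 group term and 2 residual degrees of freedom, two-sided, with Benjamini-Hochberg adjustment at 0.05. The SE is the log2 fold change over the square root of F. An exact permutation test of 2 against 2 cannot go below p = 0.333, so none was used. Replicates differed by more than counting noise (chi-square per degree of freedom 5.68 for the REEP6 pair and 9.58 for the control pair).

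Called members are named with every library's value, with their paralogues and the most and least abundant member of each role, and of the other transport genes the 3 largest rises and falls; remaining members were added after their values were seen. Members and lists were chosen with earlier results of these data known. The method was tested on simulated counts. One leukocyte marker is not reported here. Alternatives were limma 3.58.1 on log2(FPKM + 1, 0.1 or 5), no FPKM minimum or 5, library totals, median-of-ratios scaling, equal FPKM sums, DESeq2 1.42.0, no abundance trend, loess corrections (span 0.3) for GC content and length, a replicate block, leaving out each library, and an adjusted p of 0.01.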

Additional observations from a re-analysis of the deposited data

How the results depend on the processing

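Members called higher numbered 12 and those lower 7. With limma on log2(FPKM + 1), (FPKM + 0.1) or (FPKM + 5), 1 member was higher; without an abundance trend 2; at an adjusted p of 0.01 0 (12 at 0.05, 13 with DESeq2; 27 members had an unadjusted p under 0.05 in either direction). With equal FPKM sums, which moved the median gene to -0.14, 1 member was higher and 14 lower, and 3 lower with the GC correction. Leaving out each library gave 3 to 15 members higher and 5 to 8 lower. Of the other transport genes (9 higher, 15 lower), 3 were higher with limma at each pseudocount and with equal FPKM sums, 4 without an abundance trend and 2 at an adjusted p of 0.01, 8 were lower with the GC correction, and 5 to 11 were higher and 12 to 17 lower without each library. Over all genes (1422 higher, 1854 lower), limma called 634, 597 and 642 higher at pseudocounts of 1, 0.1 and 5 and 1233 lower at 0.1; a minimum of 5 FPKM gave 936 higher, equal FPKM sums 661 higher and 2824 lower, the GC correction 1147 lower, and an adjusted p of 0.01 495 higher and 897 lower. Leaving out each library gave 940 to 1495 higher and 1272 to 1717 lower. Among the 54 members and 6 other transport genes named, sign changes occurred in members that were not called. With limma at pseudocounts of 1, 0.1 and 5, SEC24B (-0.0014, -0.00056, -0.0032) and PICALM (-0.0067, -0.0069, -0.0059) changed. SEC24B and PICALM also did with a minimum of 5 FPKM (-0.013, -0.0038) and library totals (-0.017, -0.0086), and CLTA without a minimum (0.015), with median-of-ratios scaling (0.013) and DESeq2 (0.013). With equal FPKM sums 10 turned negative: SEC13 (-0.071), SEC24B (-0.12), SEC16A (-0.052), COPG1 (-0.048), COPE (-0.061), BET1 (-0.028), GOSR1 (-0.054), AP2A1 (-0.069), AP2B1 (-0.061) and PICALM (-0.11). With the GC correction 8 changed: SAR1A (0.17), SEC13 (-0.045), SEC23A (0.085), SEC24A (0.15), SEC16A (-0.047), LMAN1 (0.017), COPE (-0.017) and AP2A1 (-0.048). The length correction turned SAR1A (0.046), SEC24A (0.0028), GBF1 (0.038) and GOSR2 (0.047). Across the fits without each library, ranges spanned 0 for SEC24B (-0.19 to 0.27), TFG (-0.012 to 0.35), TMED9 (-0.20 to 0.13), GOSR2 (-0.16 to 0.013), AP2A1 (-0.046 to 0.18), PICALM (-0.044 to 0.11), SAR1A (-0.086 to 0.028), SEC24A (-0.18 to 0.015), CLTA (-0.12 to 0.11), SEC13 (-0.096 to 0.21) and GBF1 (-0.085 to 0.040). The cause was not tested.

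With the replicate number as a block, 21 members were higher and 14 lower, 22 other transport genes higher, and 2957 genes in all higher and 3062 lower. Same-numbered libraries deviated together with a correlation of 0.27 over genes, but the labels do not say that a number marks a shared culture or day. The depth of 12856256 counts or more limits genes of few FPKM most.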
